A study of Mus musculus with 4 samples.

Results

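Early distal convoluted tubule nuclei were examined in 4 single-nucleus RNA libraries from the kidneys of female mice. The nuclei were chosen by their raw UMI counts, where a UMI marks 1 captured RNA molecule. A barcode needed at least 200 genes and at most 10% of its UMIs from mitochondrially encoded genes. It further needed at least 3 UMIs of Slc12a3 and Trpm6 together, at most 1 of Calb1 and Slc8a1, at most 3 of the proximal tubule genes Slc34a1, Lrp2, Cubn and Slc27a2, and at most 1 of Slc12a1 and Aqp2. This gate held 1558 of 38481 filtered nuclei. The 10 genes of the gate were used to choose the nuclei, so their levels are given as a description and they were left out of every count of genes.

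The libraries came from MRL/lpr mice aged 6 weeks, C57BL/6 mice aged 6 weeks, MRL/lpr mice aged 10 weeks and C57BL/6 mice aged 10 weeks, and runs of 4 values follow this order throughout. In MRL/lpr mice the death receptor Fas is defective on the MRL background, and a lupus-like nephritis develops. The study had no MRL group with a working Fas gene, so the mutation, the remaining genetic background and disease cannot be told apart. Each group was 1 library, and the labels do not say how many mice it held. Library and group therefore cannot be told apart either, no test between groups was run, and every interval is a 95% interval of counting error. The labels name the kidney as the tissue and the design text names its cortex. The strain ratios at 6 and at 10 weeks share no library.

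The distal convoluted tubule is the short segment after the macula densa that reabsorbs salt through the thiazide-sensitive NaCl cotransporter, encoded by Slc12a3. WNK kinases activate the kinases SPAK and OSR1, which phosphorylate the cotransporter, while a ubiquitin ligase built from KLHL3 and CUL3 removes WNK kinases. The early part of the segment also takes up magnesium through TRPM6 and holds the calcium-binding protein parvalbumin (Pvalb), and the late part takes over calcium transport with calbindin (Calb1) and the exchanger encoded by Slc8a1.

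The promoter windows of Slc12a3, which defines the gate, and of Pvalb, the early-segment marker that differed most between the strains, are shown because the results turn on these genes. Both are the 250 bases before a RefSeq start in GRCm38.p6, a reference built from C57BL/6, so they do not show MRL/lpr alleles. The Slc12a3 window lies at chr8:94328958-94329207 on the + strand, and the Pvalb window at chr15:78206401-78206650 on the - strand, before the farther upstream of 2 starts. Capitals mark matches to any of 3 motifs searched on both strands, which were AAGGTCA (a half-site of estrogen-related receptors), GCCNNNGGC (AP-2) and TATAAA (the TATA box).
Slc12a3: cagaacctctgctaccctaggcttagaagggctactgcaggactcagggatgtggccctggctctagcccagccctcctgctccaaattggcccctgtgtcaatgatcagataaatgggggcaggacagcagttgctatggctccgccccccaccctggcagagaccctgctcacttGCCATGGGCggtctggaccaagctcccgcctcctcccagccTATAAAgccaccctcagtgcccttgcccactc
Pvalb: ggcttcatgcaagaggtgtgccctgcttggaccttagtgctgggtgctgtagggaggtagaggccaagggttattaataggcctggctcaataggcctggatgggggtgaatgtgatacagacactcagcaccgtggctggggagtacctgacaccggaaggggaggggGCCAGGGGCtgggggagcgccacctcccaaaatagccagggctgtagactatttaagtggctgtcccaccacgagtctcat
The Slc12a3 window held TATAAA from 32 to 27 bases before the start and an AP-2 match from 73 to 65 bases before it. An AP-2 match also lay from 81 to 73 bases before the Pvalb start. Of 32817 windows of this length, 13.7% held the AP-2 letters, 12.4% TATAAA and 4.08% AAGGTCA, so these matches are common letters and not evidence of a bound site.

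The values that chose the nuclei are given as a description. Among barcodes that met its other limits, 1448, 2615, 1755 and 2010 had no UMI of Slc12a3 or Trpm6, 84, 319, 89 and 193 had 1, and 2, 22, 3 and 14 had 2. Just inside the limit, 1, 3, 0 and 6 nuclei had 3 UMIs. The median of the sum in the gate was 15, 18, 14 and 16, and 88.6, 94.3, 83.0 and 89.7% of gate nuclei had at least 10. Every gate nucleus held Slc12a3, and 115, 268, 108 and 313 of the 219, 472, 224 and 643 nuclei held Trpm6. In a separate gate of proximal tubule nuclei, 7.90, 19.4, 7.43 and 11.9% had 1 UMI of the pair, so a single UMI did not mark the segment. Conversely, Slc34a1 had a UMI in 45, 136, 56 and 115 early distal nuclei, within the limit that the rule set, at medians of 533, 489, 454 and 474 UMIs per nucleus.

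The markers of the label held in part. Klhl3, the substrate adaptor of the WNK ligase, had 171, 490, 152 and 566 UMIs and was 8.22-fold higher in counts per 1000000 UMIs (CPM) than in all other filtered barcodes. It was found in 49.8, 57.2, 46.0 and 56.1% of gate nuclei. In a separate gate of late distal and connecting tubule nuclei it was found in 37.1, 50.7, 32.6 and 49.9%, so it was shared with that segment. Pvalb was 13.0-fold higher than in all other barcodes over the 4 libraries, but it was found in 41.1% and 25.4% of MRL/lpr nuclei and in only 7.42% and 2.49% of C57BL/6 nuclei (6 and 10 weeks). Most C57BL/6 nuclei of the gate thus carried the cotransporter without a captured Pvalb molecule. As a description, the genes that stood highest over the rest were led by Grin3a, a glutamate receptor subunit (31.9-fold), and Fgf13, a member of the fibroblast growth factor family (27.6-fold). Prox1, a homeobox factor, was 19.0-fold higher. Ptgfr, the receptor of prostaglandin F, was 18.4-fold higher, Abca13, a lipid transporter of the ABC family, 18.2-fold and Slc12a3 18.1-fold. The late distal and connecting tubule gate held these genes as well. Over the 4 libraries Grin3a had 194 CPM in the early gate and 24.1 in the late gate, and Abca13 had 6412 and 2616.

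The levels of markers of other segments were partly set by the rule, which limited 4 of 14 proximal tubule, 1 of 10 thick ascending limb and 1 of 9 principal cell markers and also chose the gates they are compared with. The summed level of the proximal tubule markers was 1474, 1795, 1587 and 1358 CPM, against 21540 to 26804 in the proximal tubule gate. The thick ascending limb markers summed to 1531, 1190, 1867 and 1166 CPM, against 30991 to 33477 in the gate of that segment, and most of this was Umod, uromodulin. The principal cell markers lay between 286 and 373 CPM, the 10 intercalated cell markers between 119 and 309, and the 14 immune markers between 85.8 and 187 CPM. No barcode sequence was shared between libraries among the 1558 nuclei, although 748 of 39074 barcodes in all occurred in more than 1 library.

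Early distal nuclei made up a smaller share of the MRL/lpr libraries at both ages. They were 219 of 9364 nuclei (2.34%, interval 2.04 to 2.67) in MRL/lpr and 472 of 10010 (4.72%, 4.31 to 5.15) in C57BL/6 at 6 weeks. At 10 weeks they were 224 of 9490 (2.36%, 2.06 to 2.69) and 643 of 9617 (6.69%, 6.19 to 7.20). The MRL/lpr share was 0.496 of the C57BL/6 share at 6 weeks (0.421 to 0.583) and 0.353 at 10 weeks (0.302 to 0.412). Between the ages the ratio of the 10-week to the 6-week share was 1.01 (0.834 to 1.22) in MRL/lpr and 1.42 (1.26 to 1.60) in C57BL/6. The MRL/lpr value depended on depth, since it was 0.582 (0.349 to 0.948) with at least 500 genes per nucleus and 0.820 (0.685 to 0.981) with all barcodes thinned to 400 UMIs before the gate. In C57BL/6 these settings gave 1.39 (1.04 to 1.85) and 1.14 (1.01 to 1.29).

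**Figure D1:**
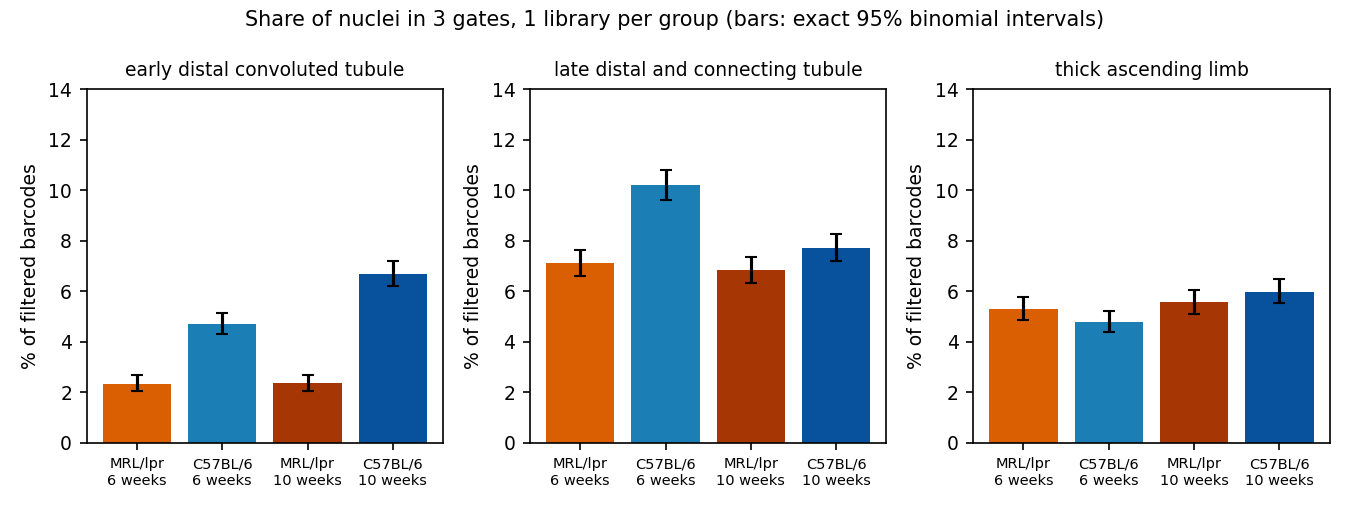
Share of filtered barcodes (y axis, percent) in the gates of early distal convoluted tubule, late distal and connecting tubule, and thick ascending limb, for the 4 libraries (x axis), with exact 95% binomial intervals. The early distal share was lower in both MRL/lpr libraries (2.34% and 2.36%) than in both C57BL/6 libraries (4.72% and 6.69%), and the thick ascending limb shares were 5.31, 4.80, 5.56 and 5.98%.

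Neighbouring segments did not show the same ratio. The thick ascending limb share was 1.11 (0.974 to 1.26) and 0.931 (0.825 to 1.05) of that in C57BL/6 at 6 and 10 weeks. For late distal and connecting tubule nuclei the ratio was 0.697 (0.631 to 0.769) and 0.885 (0.795 to 0.985). Shares of 1 library move against each other, and proximal tubule nuclei made up 56.7% and 56.0% of the MRL/lpr libraries against 40.2% and 43.9% of the C57BL/6 libraries. Outside the proximal tubule gate the early distal ratio was 0.685 and 0.451. Among all nuclei with at least 3 UMIs of Slc12a3 and Trpm6, which numbered 836, 1361, 739 and 1382, the gate took 26.2, 34.7, 30.3 and 46.5%. Most of the nuclei it left out (582, 836, 491 and 656) had more than 1 UMI of the late-segment genes Calb1 and Slc8a1. More than 3 UMIs of the proximal tubule genes were held by 118, 124, 84 and 160. More than 1 of Slc12a1 and Aqp2 was held by 57, 42, 22 and 53, and a nucleus can pass several limits. The gate's part of all these nuclei had strain ratios of 0.755 (0.641 to 0.889) and 0.651 (0.557 to 0.760). Genes of the rule set both numbers, so these ratios describe the rule and do not measure early against late segment. The late limit was not varied for the shares, and 100, 113, 65 and 99 nuclei lay 1 UMI past it. The nuclei were shallow and the lowest UMI number of a barcode was 308, 209, 175 and 228. With 1 common minimum of 308 UMIs the share ratios were 0.433 and 0.347, and with at least 500 genes per nucleus 0.488 and 0.205.

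Within the gate 4035 genes reached 50 UMIs over the 4 libraries and were compared. The gate held 122812, 244616, 107109 and 324108 UMIs, so the MRL/lpr values rest on fewer molecules. A gene counted as differing where it was at least 2-fold apart in the same direction at both ages. By that rule 35 genes (0.867%) were higher in MRL/lpr and 71 (1.76%) were lower, and 12 lay 2-fold apart in opposite directions at the 2 ages. The intervals left out a ratio of 1 at both ages for 32 of the 35 higher genes, for 30 of the 71 lower genes and for 3 of the 12. Of the 35 and 71 genes, 17 and 23 were called under all settings tried, leaving aside the UMI minimum and the comparison with proximal tubule levels. The median log2 ratio of all genes was -0.01 at 6 weeks and -0.08 at 10 weeks. Of the called genes, 18 of 35 and 52 of 71 had a level in the gate at least as high as in proximal tubule nuclei. The same held for 2836 of all 4035 compared genes. Genes are named from the 18 and the 52 unless stated.

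**Figure D2:**
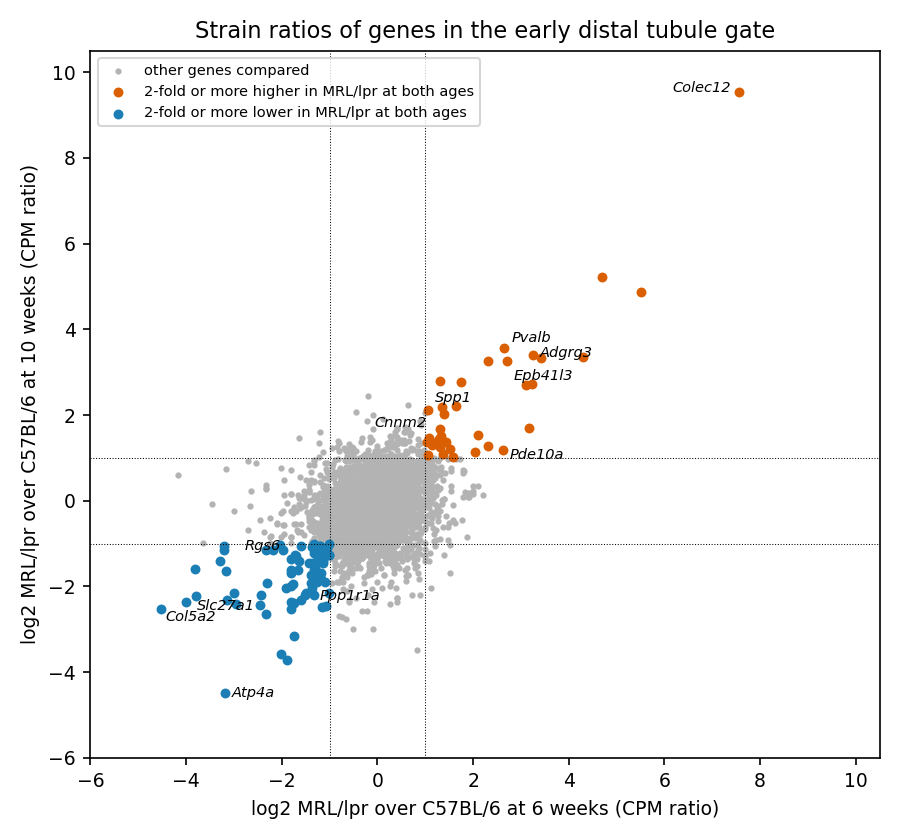
Log2 ratio of MRL/lpr over C57BL/6 in early distal nuclei at 6 weeks (x axis) and at 10 weeks (y axis), 1 point per gene compared, with 0 UMIs set at 3 and dotted lines at 2-fold. Most of the 4035 genes lie near 0, 35 lie 2-fold or more above and 71 that far below at both ages, with Colec12 far above the rest.

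Pvalb was the clearest difference among the genes of the segment. It had 120, 38, 66 and 17 UMIs, which is 977, 155, 616 and 52.5 CPM. Both MRL/lpr libraries lay above both C57BL/6 libraries, 6.29-fold at 6 weeks (4.33 to 9.31) and 11.7-fold at 10 weeks (6.81 to 21.4). With each nucleus thinned to 300 UMIs, 58 of 219 (26.5%), 20 of 466 (4.29%), 28 of 217 (12.9%) and 11 of 623 (1.77%) nuclei held Pvalb, and 0, 6, 7 and 20 shallower nuclei were left out. In the proximal tubule gate, which should lack the gene, 1.19, 0.547, 0.414 and 0.0711% of nuclei held a Pvalb UMI before thinning, at medians of 811, 876, 755 and 835 UMIs. Pvalb thus stood above that background in the early distal nuclei of all 4 libraries. Late distal and connecting tubule nuclei had 288, 104, 203 and 36.6 CPM, with log2 strain ratios of 1.47 (1.01 to 1.95) and 2.47 (1.65 to 3.39). The level was also lower at 10 weeks than at 6 weeks in each strain, by a log2 ratio of -0.67 in MRL/lpr and -1.57 in C57BL/6.

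Nuclei with and without a Pvalb UMI were set side by side for genes outside the rule. In MRL/lpr at 6 weeks, 90 nuclei with Pvalb had 6831 CPM of Wnk1 and 129 without it had 6279. Abca13 had 6046 and 5996 CPM in these nuclei. In C57BL/6 at 10 weeks Wnk1 had 5612 CPM in the 16 nuclei with Pvalb and 5846 in the 627 without, and Abca13 had 4797 and 6686 CPM. Trpm6, which the rule used, had 1760 CPM with and 1191 without Pvalb in the first library and 724 and 1511 in the second. It had 1866 and 1757 CPM in C57BL/6 at 6 weeks and 1620 and 1549 in MRL/lpr at 10 weeks. Only C57BL/6 at 10 weeks thus had less Trpm6 with Pvalb. The growth factor gene Egf was higher with Pvalb in every library, at 6085 against 5457, 5497 against 4671, 10159 against 8454 and 5521 against 4616 CPM. The order of Wnk1, Abca13 and Umod differed between libraries. The value of 724 CPM rests on 8 UMIs. These are nuclei of 1 library each and give no replicate of a group.

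**Figure D3:**
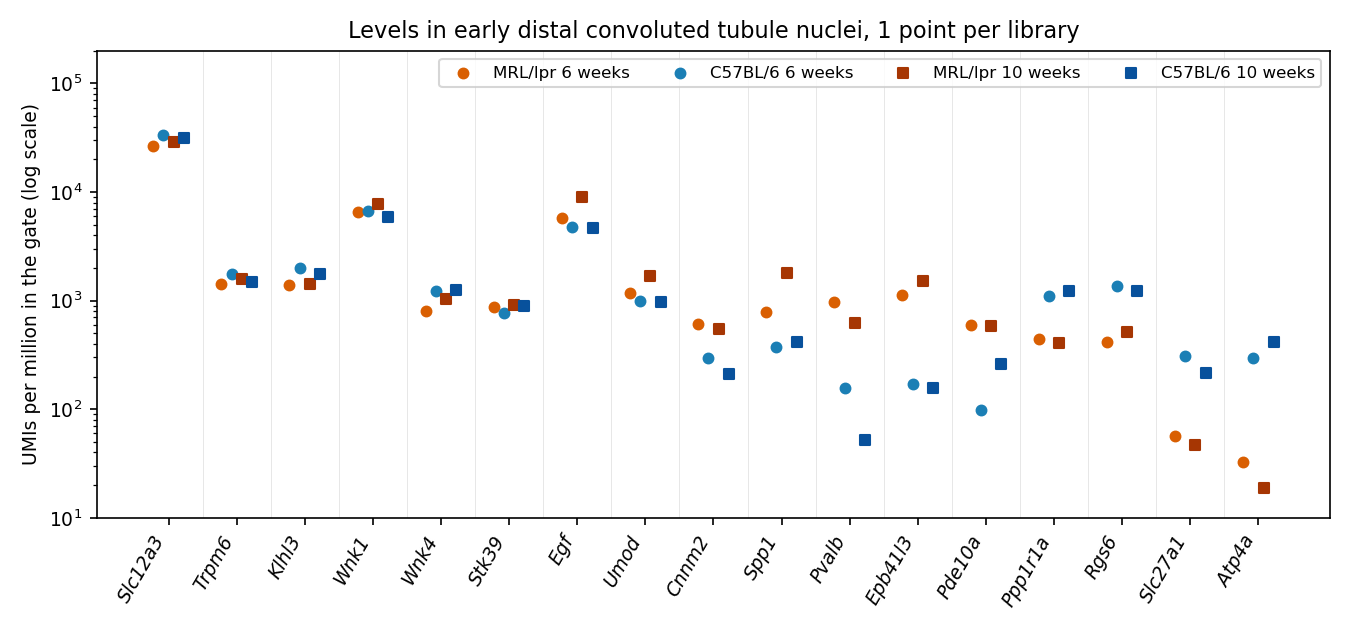
CPM in the early distal gate (y axis, log scale) for 17 genes (x axis), 1 point per library, with no replicates and hence no error bars. Klhl3, Wnk1, Wnk4 and Stk39 of the cotransporter pathway are less than 2-fold apart between the strains at each age. Pvalb and Epb41l3 are higher in both MRL/lpr libraries, and Rgs6, Atp4a and the pathway gene Ppp1r1a are lower. Slc12a3 and Trpm6 were used to choose the nuclei.

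The kinase pathway of the cotransporter, Ppp1r1a aside, held no compared gene that was 2-fold apart in the same direction at both ages. Slc12a3, used by the rule, had 26667, 33587, 28634 and 31622 CPM. Trpm6, also used by the rule, had 176, 432, 168 and 481 UMIs. Wnk1, the kinase gene with a kidney-specific short form in this segment, had 800, 1628, 830 and 1892 UMIs, with log2 strain ratios of -0.03 (-0.15 to 0.09) and 0.41 (0.29 to 0.53). Wnk4, which encodes the other WNK kinase of the segment, had 99, 303, 110 and 402 UMIs and ratios of -0.62 (-0.96 to -0.29) and -0.27 (-0.59 to 0.04). Stk39, which encodes SPAK, had 108, 189, 98 and 288 UMIs and ratios of 0.19 (-0.17 to 0.54) and 0.04 (-0.30 to 0.38). For SPAK both intervals included a ratio of 1, which allows differences within these bounds. Klhl3 was lower in MRL/lpr at both ages, by -0.52 (-0.78 to -0.27) and -0.30 (-0.57 to -0.04), less than 2-fold.

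Ppp1r1a, inhibitor 1 of protein phosphatase 1, a phosphatase that acts against the cotransporter's phosphorylation, was the only pathway gene 2-fold apart at both ages. It had 55, 270, 44 and 396 UMIs, which was 2.46-fold lower in MRL/lpr at 6 weeks (1.84 to 3.36) and 2.97-fold lower at 10 weeks (2.17 to 4.16). Both MRL/lpr libraries (448 and 411 CPM) lay below both C57BL/6 libraries (1104 and 1222 CPM). The gene was lower in MRL/lpr in the other gates as well, with log2 ratios of -1.60 and -1.42 in thick ascending limb, -1.98 and -2.10 in late distal and connecting tubule, and -0.83 and -0.97 in proximal tubule nuclei. Of 24 genes on the pathway list 17 were compared, and MRL/lpr was the higher strain at both ages for 4 and the lower for 7, with medians of -0.06 and 0.09. Over all 4035 genes 1021 were higher and 1305 lower at both ages.

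Magnesium genes held 1 difference of at least 2-fold. Cnnm2, a basolateral protein needed for magnesium transport, had 75, 73, 59 and 69 UMIs, which was 2.05-fold (1.46 to 2.86) and 2.59-fold (1.80 to 3.72) higher in MRL/lpr. It was not called in nuclei with 0 UMIs of Calb1 and Slc8a1, where the 10-week log2 ratio was 0.91 against 1.37. The ratio was smaller in late distal and connecting tubule nuclei, with log2 values of 0.52 and 0.17, and was -0.24 and 0.19 in proximal tubule nuclei. Egf, the growth factor that acts on magnesium uptake through its receptor, had 703, 1159, 956 and 1506 UMIs. Its strain ratio was 1.21-fold (1.10 to 1.33) at 6 weeks and 1.92-fold (1.77 to 2.08) at 10 weeks. Umod, uromodulin, had 145, 241, 180 and 312 UMIs and log2 ratios of 0.26 (-0.05 to 0.56) and 0.80 (0.53 to 1.07). Both Egf and Umod were higher in thick ascending limb nuclei (14973 and 9236 CPM over the 4 libraries) than in the gate (5414 and 1099 CPM), and the part of RNA from that segment was not tested. Trpm7, the channel kinase related to TRPM6, had 367, 862, 344 and 1156 UMIs and log2 ratios of -0.24 and -0.15. Fxyd2, the gamma subunit of the sodium pump, had ratios of -0.46 and -0.30. Of 18 magnesium genes 10 were compared, 4 of them on the higher and 3 on the lower side at both ages (medians 0.01 and 0.12). Over all 4035 compared genes 25.3% were on the higher and 32.3% on the lower side.

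None of 10 compared genes of basolateral ion exit was 2-fold apart at both ages. Atp1b1, the beta subunit of the sodium pump, had 264, 587, 266 and 648 UMIs and log2 strain ratios of -0.16 (-0.37 to 0.05) and 0.31 (0.10 to 0.52). The potassium channel genes Kcnj10 and Kcnj16 had ratios between -0.62 and -0.21, and all 4 of their intervals included 0. The list had 2 members above and 5 below C57BL/6 at both ages (medians -0.40 and 0.02), beside 25.3% and 32.3% of all 4035 compared genes.

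Transcription factors of the distal tubule were also close. Tfap2b, an AP-2 factor of the distal nephron, had 50, 59, 44 and 77 UMIs and log2 ratios of 0.76 (0.18 to 1.32) and 0.79 (0.22 to 1.34). Esrrg, an estrogen-related receptor, had 484, 1138, 379 and 1710 UMIs and ratios of -0.24 (-0.40 to -0.08) and -0.58 (-0.74 to -0.41). Mecom had 606, 1082, 603 and 1632 UMIs and ratios of 0.16 at both ages. Of 16 compared factors 5 were higher and 3 lower at both ages, and none reached 2-fold at both. The shares higher and lower at both ages over all compared genes were 25.3% and 32.3%.

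Among hormone receptors, Erbb4, a receptor of the EGF receptor family, had 312, 473, 330 and 828 UMIs and log2 ratios of 0.39 (0.18 to 0.60) and 0.27 (0.08 to 0.46). Nr3c2, the mineralocorticoid receptor, had 109, 186, 106 and 349 UMIs and ratios of 0.22 and -0.12, with both intervals including 0. Insr, the insulin receptor, had 12, 50, 14 and 71 UMIs and ratios of -1.06 (-2.11 to -0.14) and -0.74 (-1.69 to 0.09). Pth1r, the parathyroid hormone receptor, had 16, 34, 25 and 19 UMIs. Its ratio was -0.09 at 6 weeks and 1.99 (1.07 to 2.94) at 10 weeks. Of 14 compared receptors 4 were higher and 4 lower at both ages, beside 25.3% and 32.3% of all 4035 compared genes.

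Genes of the late segment that the rule did not use were present in the gate, below their level in late distal and connecting tubule nuclei. The 16 genes of this list summed to 3526, 4542, 4463 and 4603 CPM in the gate. In late distal and connecting tubule nuclei they summed to 17630, 17540, 19309 and 22766 CPM. S100g, the small calcium-binding protein calbindin-D9k, had 277, 417, 224 and 534 CPM, against 2277, 2932, 1932 and 4894 in late distal and connecting tubule nuclei. Its log2 strain ratio was -0.59 (-1.20 to -0.02) and -1.25 (-1.93 to -0.63) in the gate, and -0.36 and -1.34 in the late gate. Klk1, kallikrein, had 137, 394, 161 and 552 UMIs and ratios of -0.53 and -0.18. Of 9 compared late-segment genes 2 were higher and 3 lower at both ages, beside 25.3% and 32.3% of all 4035 compared genes.

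**Figure D4:**
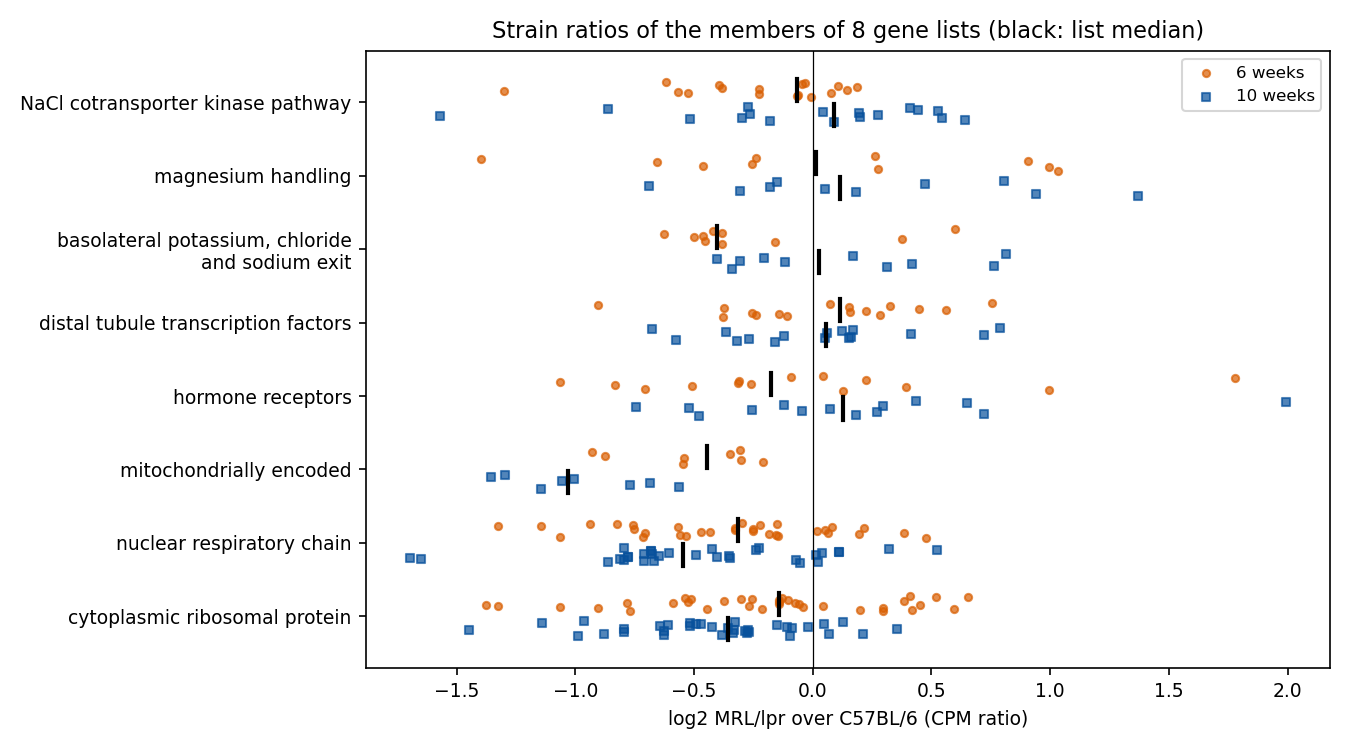
Log2 ratio of MRL/lpr over C57BL/6 (x axis) for every compared member of 8 gene lists (y axis), with circles for 6 weeks, squares for 10 weeks and black bars for list medians. Medians of the lists on the segment's function lie between -0.40 (basolateral ion exit at 6 weeks) and 0.13 (hormone receptors at 10 weeks). All 8 mitochondrially encoded genes lie below 0 at both ages, with medians of -0.45 and -1.03.

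Genes of energy and protein synthesis are set beside all 4035 compared genes, of which 1305 (32.3%) were lower and 1021 (25.3%) higher in MRL/lpr at both ages. All 8 compared mitochondrially encoded genes were lower at both ages, with medians of -0.45 and -1.03. Of these mt-Co3, a cytochrome c oxidase subunit, had 72, 209, 37 and 180 UMIs and log2 ratios of -0.54 (-0.95 to -0.15) and -0.69 (-1.24 to -0.17). Of 32 nuclear respiratory chain genes 20 were lower and 3 higher at both ages, with medians of -0.31 and -0.55 against -0.01 and -0.08 over all genes. Cox5b, a cytochrome c oxidase subunit, had 44, 143, 16 and 157 UMIs and ratios of -0.71 (-1.23 to -0.21) and -1.70 (-2.54 to -0.95). Of 35 compared ribosomal protein genes 21 were lower and 2 higher, with medians of -0.14 and -0.36. In the gate the respiratory chain list summed to 9649, 11594, 6853 and 9364 CPM. In proximal tubule nuclei it summed to 10760, 12944, 7271 and 10352 CPM. It was lower in MRL/lpr at both ages in the thick ascending limb and late gates too. The ribosomal list was lower in MRL/lpr at 10 weeks in every gate, and higher at 6 weeks in proximal tubule nuclei. The lower levels were thus not particular to the gate. In a nucleus preparation, mitochondrially encoded RNA comes from outside the nucleus. It made up 0.221, 0.302, 0.138 and 0.251% of the UMIs in the gate and 0.271, 0.297, 0.126 and 0.283% in all filtered barcodes, so the low value of MRL/lpr at 10 weeks was shared by the whole library. Its part in the lists was not tested.

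Epb41l3, a membrane skeleton protein of the band 4.1 family, had 137, 42, 162 and 51 UMIs (1116, 172, 1512 and 157 CPM). It was 6.50-fold (4.57 to 9.41) and 9.61-fold (6.98 to 13.4) higher in MRL/lpr, and the libraries of the strains did not overlap. In late distal and connecting tubule nuclei the log2 ratio was 2.61 and 2.70, whereas it was 0.03 and 1.28 in thick ascending limb and -0.35 and 0.53 in proximal tubule nuclei. Adgrg3, an adhesion G protein-coupled receptor, had 19, 4, 21 and 6 UMIs and was 9.46-fold (3.14 to 38.2) and 10.6-fold (4.13 to 32.1) higher. Pde10a, a cyclic nucleotide phosphodiesterase, had 74, 24, 63 and 84 UMIs and was 6.14-fold (3.83 to 10.2) higher at 6 weeks and 2.27-fold (1.61 to 3.18) at 10 weeks. In C57BL/6 Pde10a was 2.64-fold higher at 10 than at 6 weeks, and in late distal nuclei its strain ratio was 3.15 on the log2 scale at 6 weeks and 0.13 at 10 weeks. Bbs9, a subunit of the complex that carries proteins to cilia, was 3.12-fold and 4.62-fold higher. St3gal4, a sialyltransferase, was 8.96-fold and 3.26-fold higher, and Tmem178 3.37-fold and 6.81-fold. The other named higher genes were Rnf114, Rnaset2a, Lpin2, Fry and Fli1, with ratios from 2.14-fold to 4.27-fold. Pde10a, Rnf114, Lpin2, Fry and Fli1 were not called under all settings tried.

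Atp4a, the catalytic subunit of the gastric-type proton potassium pump, had 4, 73, 2 and 135 UMIs. In MRL/lpr it was lower by 9.16-fold (3.43 to 34.5) and 22.3-fold (6.06 to 186), and it was also lower in thick ascending limb nuclei, with log2 ratios of -4.13 and -3.71. Slc27a1, a fatty acid transport protein, had 7, 75, 5 and 70 UMIs and was lower, by 5.38-fold (2.49 to 13.8) and by 4.63-fold (1.89 to 14.7). Pttg1, the securin of mitosis, had 5, 55, 4 and 65 UMIs and was 5.52-fold and 5.37-fold lower. Its ratio in late distal nuclei was -2.42 and -2.79 on the log2 scale.

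Col5a2, a collagen V chain, had 1, 46, 0 and 52 UMIs. It was 23.1-fold lower in MRL/lpr at 6 weeks (3.94 to 932). At 10 weeks no UMI was found in MRL/lpr, which against the 3 UMIs that a count of 0 allows was at least 5.73-fold lower, with a counting interval from 4.50-fold. Thick ascending limb nuclei had 0, 79, 2 and 104 UMIs of Col5a2. Antxr1 had 0, 30, 1 and 19 UMIs, at least 5.02-fold lower at 6 weeks (interval from 3.84-fold) and 6.28-fold (0.998 to 261) at 10 weeks. Stk25, a kinase, had 0, 22, 1 and 40 UMIs, at least 3.68-fold (interval from 2.75-fold) and 13.2-fold (2.24 to 535) lower. Thra, a thyroid hormone receptor, had 2, 16, 1 and 36 UMIs, and its interval included 1 at 6 weeks. Drc3, Sh3pxd2a and Adgrl4 had 1 to 4 UMIs in each MRL/lpr library and 16 to 32 in each C57BL/6 library. Rnaset2b had 3, 53, 3 and 45 UMIs, while its near-identical copy Rnaset2a had 83, 66, 60 and 64 and was 2.50-fold and 2.84-fold higher in MRL/lpr. How the counting divided reads between these copies is not given, so both values are uncertain.

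Some called genes outside the naming rule were chosen after their values were seen. Rgs6, a regulator of G protein signalling, had 51, 335, 55 and 398 UMIs and was 3.30-fold (2.45 to 4.52) and 2.39-fold (1.80 to 3.23) lower in MRL/lpr. In late distal nuclei its log2 ratio was -1.69 and -1.57, and in thick ascending limb nuclei 0.16 and 0.51. Colec12, a scavenger receptor of the collectin family, had 1232, 13, 978 and 4 UMIs, 189-fold (110 to 356) and 740-fold (288 to 2721) higher. Colec12 was found in 208 of 219 and 209 of 224 MRL/lpr early distal nuclei and in 5054 of 5306 and 4764 of 5319 MRL/lpr proximal tubule nuclei, so its level was not particular to the segment. Spp1, osteopontin, named as the injury gene with most UMIs, had 96, 92, 192 and 135 UMIs and was 2.08-fold (1.55 to 2.80) and 4.30-fold (3.44 to 5.40) higher. Spp1 was also higher in MRL/lpr in the other gates, by log2 ratios of 0.31 to 1.41, and its pooled level was higher in proximal tubule nuclei (822 CPM) than in the gate (645 CPM). Its call did not hold under all settings tried. Arntl, a core clock activator, had 9, 44, 5 and 53 UMIs and was lower by 2.45-fold (1.18 to 5.72) and 3.50-fold (1.41 to 11.2). The hour of sampling is not given in the labels.

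**Figure D5:**
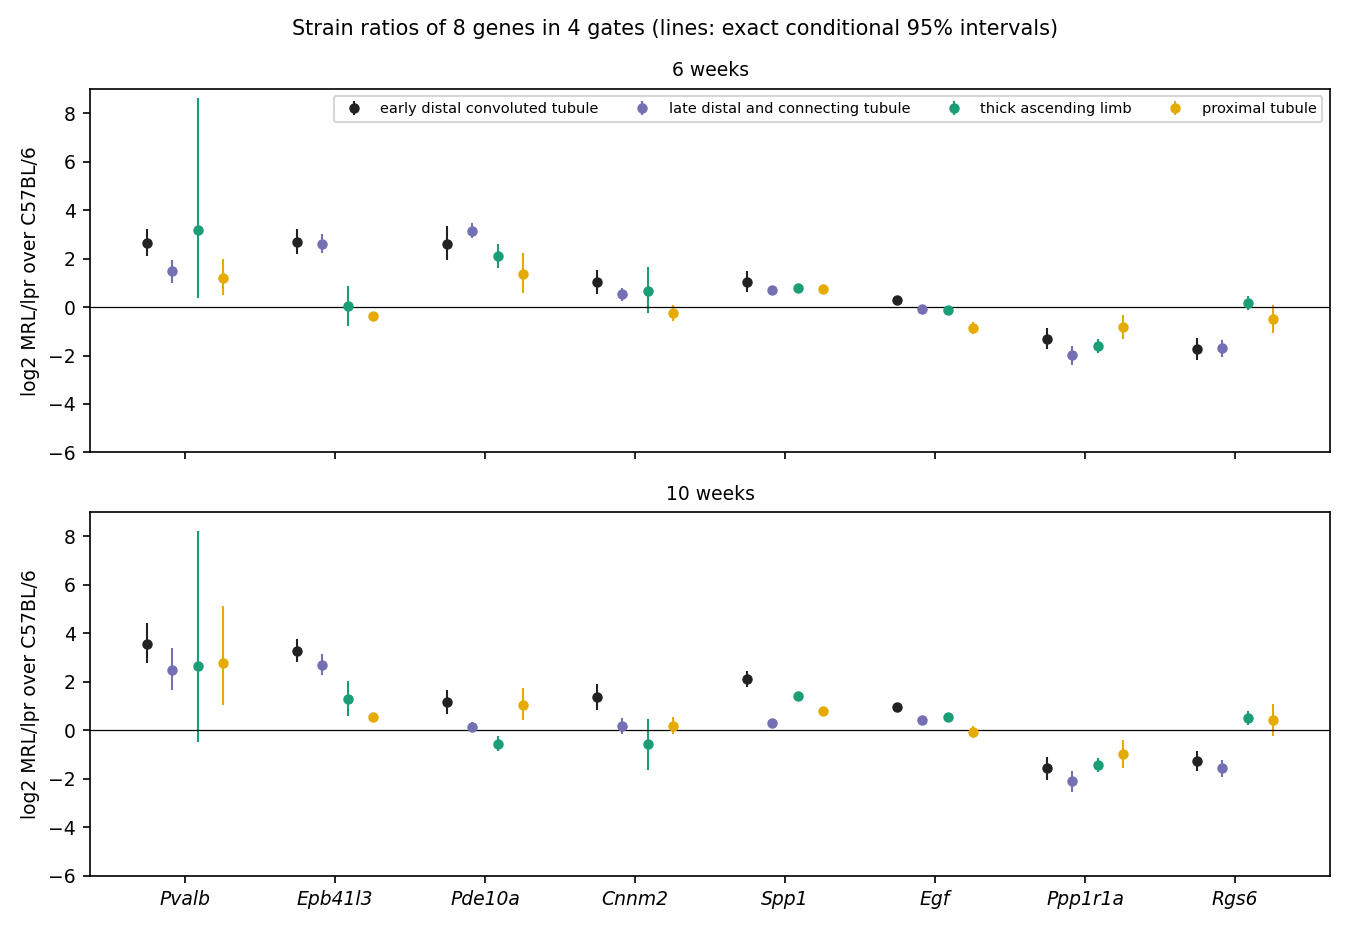
Log2 ratio of MRL/lpr over C57BL/6 (y axis) for 8 genes (x axis) in 4 gates at 6 weeks (upper panel) and 10 weeks (lower panel), with exact conditional 95% intervals of counting error. The Epb41l3 and Rgs6 ratios of the early distal gate (2.70 and -1.72 at 6 weeks) recur in the late distal gate and not in the thick ascending limb gate at that age, while Ppp1r1a is lower in MRL/lpr in all 4 gates.

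Markers of endothelium moved with the strain ratio. Of 10 such genes 4 were compared in the gate and all 4 were lower in MRL/lpr at both ages, with medians of -0.93 and -1.28. Over all 4035 compared genes 32.3% were lower at both ages, with medians of -0.01 and -0.08. The summed level of all 10 endothelium markers was 464, 887, 289 and 484 CPM in the gate and 444, 528, 267 and 454 CPM in proximal tubule nuclei. It was 539, 1012, 351 and 786 CPM in thick ascending limb nuclei. Late distal and connecting tubule nuclei had 378, 819, 316 and 549 CPM, so the lower level in MRL/lpr was not particular to the gate. Plvap, a protein of fenestrated endothelium, had 7, 35, 3 and 29 UMIs. Of the immune markers, at least 9 of 14 were at 0 in each library other than C57BL/6 at 10 weeks, where 2 were. Few interferon or MHC genes had enough UMIs to be compared. H2-K1, an MHC class I gene, had 20, 44, 18 and 134 UMIs, and Cd74, the invariant chain of MHC class II, had 25, 10, 43 and 54. The Cd74 ratio was 2.32 (1.21 to 3.54) and 1.27 (0.66 to 1.87) on the log2 scale with all nuclei. Without the nuclei marked as doublets its 10-week ratio was -1.50. The sign at that age also changed with 0 UMIs of the proximal tubule genes and with 0 UMIs of Calb1 and Slc8a1. The higher value thus depended on which nuclei were kept, and the cause was not tested.

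Differences between 10 and 6 weeks shared by both strains were few. Of the 4035 genes, 5 (0.124%) were 2-fold or more above and 10 (0.248%) that far below their 6-week level in both strains, and 16 were 2-fold apart in opposite directions. The intervals left out 1 in both strains for 3 of the 5 and 4 of the 10. Under the same settings as above, 0 of the 5 and 3 of the 10 were called (Uqcrfs1, Bphl and Spink1, named after their values were seen). Fermt2, Hmgn3, Psenen and Lsamp were not among these. Fermt2, a protein of cell-matrix adhesion, had 23, 25, 43 and 90 UMIs and was higher at 10 weeks by 2.14-fold (1.26 to 3.73) in the MRL/lpr pair and by 2.72-fold (1.73 to 4.42) in the C57BL/6 pair. Hmgn3, a nucleosome-binding protein, had 12, 53, 2 and 34 UMIs and was 5.23-fold (1.16 to 48.1) and 2.07-fold (1.32 to 3.28) lower. Psenen, a subunit of gamma-secretase, had 29, 53, 11 and 35 UMIs and was 2.30-fold (1.12 to 5.10) and 2.01-fold (1.28 to 3.17) lower. Lsamp had 5, 7, 20 and 32 UMIs and was 4.59-fold and 3.45-fold higher, but its ratio turned around without marked doublets in C57BL/6 (-2.42 on the log2 scale) and without nuclei holding any proximal tubule UMI in MRL/lpr (-1.09). The other named genes were Capzb and Kyat3, which were higher, and C77080, Armc9, Emcn and Cyp2u1, which were lower. Emcn is on the list of endothelium markers, and its pooled level in the gate was 0.372 of that in all other filtered barcodes.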

How the data were processed

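The deposited matrices hold counts of UMIs per gene and barcode in 4 nucleus libraries, made by the authors with Cell Ranger (version 3.1.0 per the submitters' processing notes, 5.0.0 per the file headers). The genome build is not given in the sources used here, nor is the counting of introns. Nuclei came from an iodixanol gradient and were sequenced from the 3' end in droplets, per the labels' protocols. The libraries held 7660682, 6847593, 6466973 and 6754055 UMIs in 9365, 10182, 9889 and 9638 barcodes.

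UMIs were summed over gate nuclei and scaled by the gate total to CPM (per 1000000 UMIs) (Python 3.11.15, scipy 1.17.1). Ratios have conditional exact binomial intervals and shares exact (Clopper-Pearson) intervals. A count of 0 was set at 3 UMIs, and no ratio was taken where both sides were at or under 3. The comparison gates used at least 4 UMIs of the proximal genes, 3 of Slc12a1, or 3 of Calb1 and Slc8a1. Late gate nuclei may hold Slc12a3 at any level. Doublets were marked as the highest Scrublet scores (scanpy 1.11.5) at 0.8% per 1000 barcodes and kept in the main values. The script was tested on simulated data. Members and lists were chosen with earlier results of these data known. Named were list members, the 12 highest and 12 lowest genes by strain and 8 each by age, predicted genes aside, and the leading genes. TMM scaling came from edgeR 4.0.16. Promoters were RefSeq windows (GRCm38.p6). Some items are not reported here.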

Additional observations from a re-analysis of the deposited data

Results flagged for a closer look

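For 3 genes the strain ratio was at least 2-fold in opposite directions at the 2 ages, with both intervals leaving out 1. With 1 library per group the difference between the ages was not tested. Hypk had 4, 25, 11 and 12 UMIs in the gate, with a log2 ratio of MRL/lpr over C57BL/6 of -1.65 at 6 weeks and 1.47 at 10 weeks. Cars2, a mitochondrial cysteinyl-tRNA synthetase, had 17, 13, 6 and 44 UMIs and ratios of 1.38 and -1.28. Cnnm1, a relative of the magnesium gene Cnnm2, had 28, 26, 12 and 84 UMIs and ratios of 1.10 and -1.21. None of the 3 was called under all settings tried, and of the 12 genes 2-fold apart in opposite directions 1 was. Log2 ratios at 10 weeks were 0.67 for Hypk with nuclei thinned to 300 UMIs, -0.89 for Cars2 with 0 UMIs of the proximal tubule genes and -0.83 for Cnnm1 with 0 UMIs of Calb1 and Slc8a1.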

How the results depend on the processing

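The MRL/lpr share stayed below the C57BL/6 share under every setting run. Its ratio was 0.685 and 0.451 (6 and 10 weeks) outside the proximal tubule gate, 0.755 and 0.651 among nuclei with at least 3 UMIs of Slc12a3 and Trpm6, and 0.205 at 10 weeks with at least 500 genes. Under the other settings it lay between 0.433 and 0.531 at 6 weeks and between 0.327 and 0.368 at 10 weeks. Counts of genes depended on the UMI minimum by construction. At 20 UMIs the strain counts were 100 higher and 212 lower, and the age counts 33 and 68. At 100 UMIs these were 11, 19, 1 and 2. With nuclei thinned to 300 UMIs 15 were higher and 37 lower by strain. With 0 UMIs of the proximal tubule genes 44 were lower by strain and 3 higher with age. With genes below their proximal tubule level left out 18 were higher by strain and 6 lower with age. With doublets removed 6 were lower with age, and with 0 UMIs of Calb1 and Slc8a1 1 was higher. The other settings gave 24 to 45 higher and 52 to 71 lower genes by strain. TMM scaling made 41.7% of strain calls higher, against 33.0% in the main values. Of the 35 and 71 genes 17 and 23 were called under all settings of the genes other than the UMI minimum and the proximal tubule level. Over 241 genes, 11367 of 11478 single values moved by less than counting error and 5 changed sign. These were Lsamp in C57BL/6 without doublets (-2.42) and in MRL/lpr with 0 proximal UMIs (-1.09), and Cd74 at 10 weeks without doublets (-1.50), with 0 proximal UMIs (-1.99) and with 0 UMIs of Calb1 and Slc8a1 (-0.39). The cause was not tested. The denominator of Slc12a3 and Trpm6 nuclei, thinning to 300 UMIs and the stricter late limit were chosen after seeing the data. No paired analysis was possible because each group holds 1 library. Depth limits genes under about 50 UMIs, and 41 of the 71 lower genes have an interval that reaches 1.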
